A study of Mus musculus with 18 samples.

Results

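Heat shock chaperones were followed through 10 genes, Hsph1, Hspa1a, Hspa1b, Hspa8, Hsp90aa1, Hsp90ab1, Hspd1, Hspe1, Dnajb1 and Dnaja1, taken by name from the 33006 genes of the count matrix, of which 17739 had at least 1 UMI (a molecule counted once). The matrix held 26652 splenic CD4+ T cells of male mice in 18 samples, sorted as TCRβ+ CD4+ cells and sequenced with 10x Genomics 3′ kits. The study compared wild-type (WT) cells with ∆Foxp3 cells, whose Foxp3 allele, needed to make working regulatory T (Treg) cells, is disrupted. The authors' annotation divided the cells into 19747 resting conventional T (Tconv) cells, 4897 activated Tconv cells and 2008 cells annotated as Treg.

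The first experiment used the V2 kit with 1 sample per channel. It held 2 ∆Foxp3 samples, A and B, from mice carrying Foxp3DeltaEGFPiCre and a ROSA-YFP reporter, and 2 WT samples, A and B, from Foxp3-IRES-GFP mice, all 21 days old. The second experiment used the V3 kit with antibody hashtags pooled in 2 tubes. Its intact mice gave 2 samples of ∆Foxp3 cells at 3 weeks (the genotype of the first experiment), 2 of WT cells (Foxp3-IRES-GFP, CD45.1) at 9 weeks, and 2 each of GFP+ Treg and GFP- Tconv cells sorted from the WT mice. Its mixed chimeras were 3 mice irradiated with 1000 rad at 7 weeks of age and given CD3-depleted marrow cells, 50% WT and 50% ∆Foxp3. After 10 weeks, at an age the sample labels give as 16 weeks, WT (CD45.1) and ∆Foxp3 (CD45.1/2) cells were sorted from each mouse, so both genotypes had developed beside WT Treg cells. Outside the chimeras nothing shows that replicates came from different mice, so p-values there may measure only technical spread.

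Heat shock chaperones bind unfolded proteins and help them fold. The Hsp70 proteins (Hspa8, made constantly, and Hspa1a and Hspa1b, made on stress) work with J-domain partners (Dnaja1, Dnajb1) that bring clients and stimulate ATP hydrolysis, and with Hsph1, which exchanges their nucleotide. Hsp90ab1 is the constant and Hsp90aa1 the more inducible cytosolic Hsp90, and both hold kinases and receptors in a ready state. Hspd1 (Hsp60) and Hspe1 (Hsp10) form the folding chamber of mitochondria. Heat shock factor HSF1 raises the inducible members after heat or other stress, and T cell activation is also known to raise chaperone synthesis.

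HSF1 is known to bind repeated nGAAn units, and 2 inverted units read GAANNTTC or TTCNNGAA. In windows from 250 bases before to 50 after the start of 32851 RefSeq promoters (GRCm38.p6), GAANNTTC stood in 7.86% and TTCNNGAA in 8.52%, either strand reading the same, and 15.1% held at least one. A form with 3 units (GAANNTTCNNGAA or TTCNNGAANNTTC) stood in 0.603%. Of the 7 members with a window, 6 had a 2-unit match and 3 (Hspd1, Hspe1 and Hsph1) a 3-unit match. Counted by window, as the shares over all promoters are, 7 of 12 member windows (58.3%) held a 2-unit match. Hspa8, Hsp90aa1 and Hsp90ab1 were without an entry. The stretches are shown because they set the mitochondrial pair, which share one site between them, beside the inducible genes; capitals mark the matching units, and each line gives the place, the strand and the distance from the start. A match is a description of letters and does not show binding.
Hspd1, chr1:55088053-55088082, minus strand, 144 bases before the start: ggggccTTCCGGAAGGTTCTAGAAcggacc
Hspe1, chr1:55088053-55088082, plus strand, 89 bases before the start: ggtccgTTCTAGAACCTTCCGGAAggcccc
Hsph1, chr5:149636351-149636380, minus strand, 33 bases before the start: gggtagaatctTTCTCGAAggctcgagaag
Hsph1, chr5:149636280-149636308, minus strand, 15 bases after another start: gctgcagaTTCTGGAAAGTTCtcctcagt
Dnaja1, chr4:40722333-40722362, plus strand, 124 bases before the start: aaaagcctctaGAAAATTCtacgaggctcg
Hspa1a, chr17:34972242-34972271, minus strand, 104 bases before the start: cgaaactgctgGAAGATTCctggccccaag
Hspa1b, chr17:34959324-34959353, minus strand, 104 bases before the start: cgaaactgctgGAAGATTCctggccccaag
The Hspd1 and Hspe1 lines are the same 30 bases read on opposite strands, within an annotated Hspd1 exon, since these 2 genes diverge from one shared promoter. The Dnaja1 line and both Hsph1 lines also overlapped annotated exons of their own genes, and the Dnaja1 line an exon of Gm6297. The Hspa1a and Hspa1b windows differed at 4 of 300 bases. Neither of the 2 Dnajb1 windows held a match.

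The stress-inducible Hsp70 genes were near 0. Hspa1a gave 10 UMIs among 40969623 in the first experiment (0.244 CPM, the gene's UMIs scaled to one fixed total of UMIs) and 6 among 78335413 in the second (0.0766 CPM). Hspa1b gave 4 UMIs in the first experiment, all in 1 of 4 samples, and 12 in the second, spread over 7 of 14 samples (0.0976 and 0.153 CPM). These 2 genes lie close together on chromosome 17 (Hspa1b at 34956436 to 34959238, Hspa1a at 34969190 to 34972156, GRCm38). With every cell thinned to 1500 UMIs, Hspa1a or Hspa1b was seen in at most 0.0804% of a sample's resting cells without a Dnajb1 or Hsph1 UMI and in 0 of those with one, and in 1 of 70 cells (1.43%) with a Fos, Jun or Egr1 UMI in 1 chimera sample. These counts are too low for any comparison of cells. Neither gene reached the count needed for a test, so 8 of the 10 members were tested in every comparison below.

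The other members were present in every sample. In resting Tconv cells of the V2 samples the median level ran from 2135 CPM for Hspa8 through 1045 for Hsp90ab1, 419 for Hspe1, 329 for Dnaja1, 259.5 for Hsp90aa1, 134 for Hspd1 and 66.9 for Dnajb1 to 25.4 for Hsph1. Over the 12 V3 resting sums Hsp90ab1 (median 1147, range 1080 to 1346 CPM) and Hspa8 (1128, range 981 to 1402 CPM) overlapped, so their order is not resolved. The ranges of Dnaja1 (211 to 310.1 CPM) and Hsp90aa1 (154 to 237 CPM) overlapped too. Within a sum Dnaja1 was the higher in all but ∆Foxp3 sample 2 at 3 weeks (211 against 232 CPM). Levels are of 3′ tags, which count molecules and not length, and the order between genes is approximate. Hspa8 was seen in 96.8% to 99.5% of V3 resting cells, and Hsph1 in 5.67% to 15.7%, falling to between 0.926% and 4.22% when cells were thinned to 1500 UMIs. Every cell type makes these proteins, so no class served as a background for such shares. Near-identical copies may take part of the reads of some genes: of the 50-base words in the last 500 bases, 68.6% of those of Hspa8, 53.2% of Hspe1, 39.1% of Dnaja1, 29.8% of Hspd1, 24.7% of Hsp90aa1 and 2.25% of Hsp90ab1 also occurred in other genes, against 0 for Hsph1, Hspa1a, Hspa1b and Dnajb1.

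**Figure D1:**
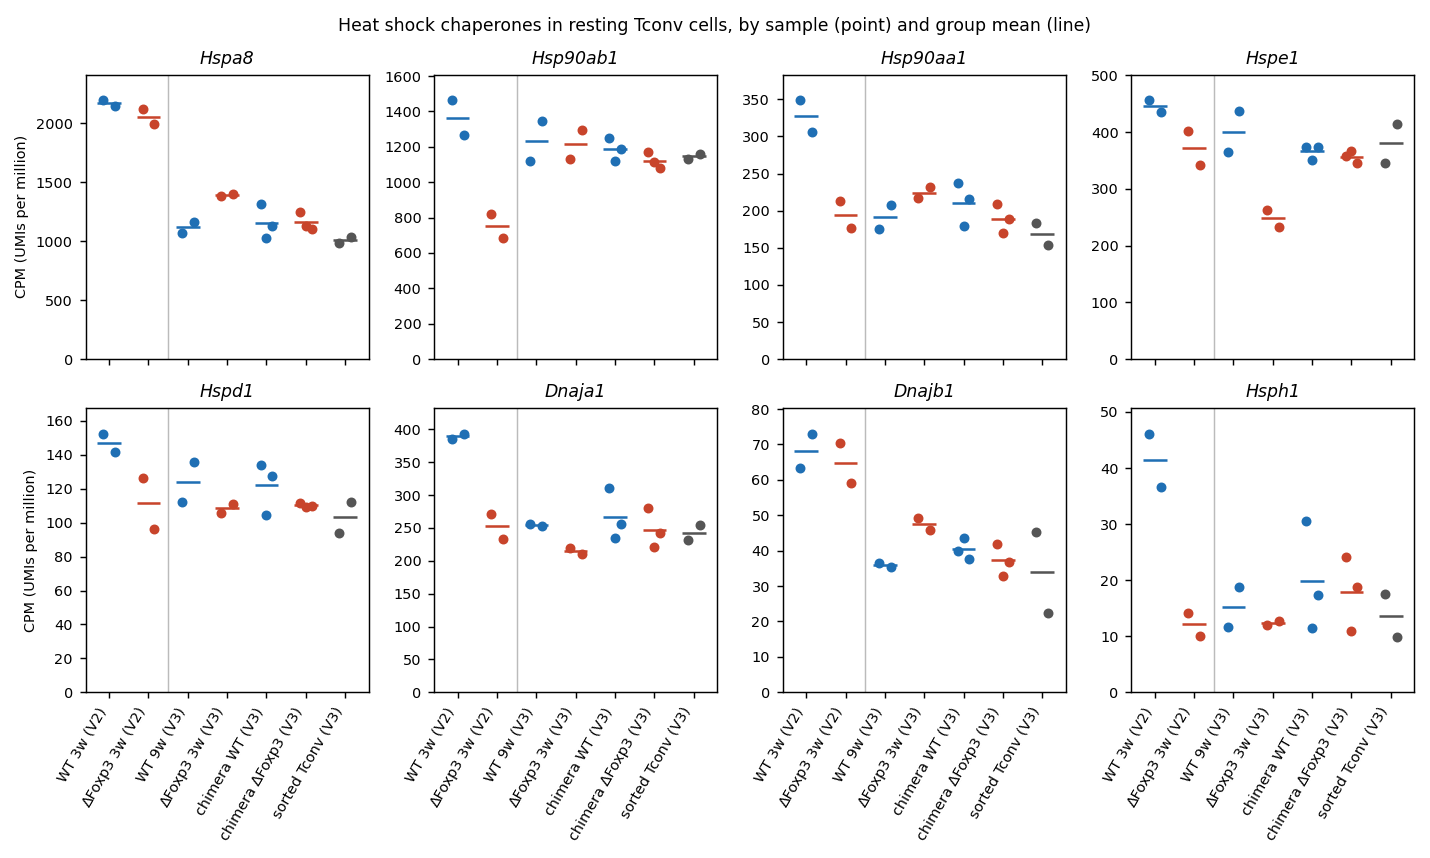
CPM of 8 chaperone genes in resting Tconv cells, 1 point per sample with a line at the group mean, V2 groups left of the grey line and V3 groups right of it. Hsph1 lies at 46.2 and 36.6 CPM in the V2 WT samples and at 14.2 and 10.1 in the V2 ∆Foxp3 samples, while the chimera genotypes overlap.

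Facts of the libraries bear on what follows. CD4 T cell marker sums were 5551 to 6481 CPM in V2 and 4294 to 4797 in V3 resting cells, and median depth was 2741 to 3092 and 5038 to 7989 UMIs per cell. The share of reads in cells was 0.791 and 0.795 in the V2 WT libraries but 0.597 and 0.534 in the ∆Foxp3 ones. V2 ∆Foxp3 B stood apart: 70.1% of its resting cells had at least 2 UMIs of B cell, plasma cell, myeloid, CD8/NK or erythroid markers, against 32.3% to 37.0% in the other V2 samples, and its erythroid sum was 607 CPM against 117 to 174. In the V3 ∆Foxp3 samples at 3 weeks, cells annotated as resting held 11157 and 12188 CPM of activation and memory genes, against 701 to 1036 CPM in the other V3 resting sums. Among cells of the first experiment, 180 of 13921 shared a barcode with another of its libraries, and 9 barcodes occurred in both tubes of the second.

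In the first experiment, ∆Foxp3 resting Tconv cells held less Hsph1, Hsp90ab1, Hsp90aa1 and Dnaja1 mRNA than WT cells of the same age. These are Hsp90 in both its cytosolic forms, a J-domain partner and the Hsp70 exchange factor. The 2 chaperonin genes and Dnajb1 and Hspa8 were not called. Hsph1 measured 46.2 and 36.6 CPM in WT samples A and B, and 14.2 and 10.1 CPM in ∆Foxp3 samples A and B. The highest ∆Foxp3 value was below the lowest WT value, and the ratio of means was 0.294. With 2 samples a group such separation often arises by chance, and its share over all genes was not counted here or below. Hsp90ab1 measured 1463 and 1269 CPM in WT, and 821 and 687 in ∆Foxp3 samples. Hsp90aa1 measured 349 and 306 CPM in WT, and 213 and 176 in ∆Foxp3 samples. For both Hsp90 genes the groups did not overlap, with ratios of 0.552 and 0.594. Dnaja1 measured 386 and 394 CPM in WT against 272 and 234, a ratio of 0.649, again without overlap.

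By edgeR's quasi-likelihood test with Benjamini-Hochberg adjustment over 10071 genes, the log2 fold change was -1.68 ± 0.17 (SE, adjusted p = 0.00061) for Hsph1, -0.86 ± 0.10 (0.00099) for Hsp90ab1, -0.75 ± 0.10 (0.0024) for Hsp90aa1 and -0.63 ± 0.09 (0.0025) for Dnaja1. Thus 4 of 8 tested members were lower and 0 higher, where 19.6% of all genes were called and 7.63% were called lower. The median over the 8 tested members was -0.51, beside -0.01 over all genes. Hspd1 (153 and 142 CPM in WT, 126 and 96.4 in ∆Foxp3) and Hspe1 (456 and 435, then 402 and 342) did not overlap either, but missed the threshold at -0.39 ± 0.12 (adjusted p = 0.054) and -0.27 ± 0.09 (0.071). With the replicate letter as a block both were called, at -0.40 and -0.27, which made 6 lower. Without ∆Foxp3 A both were called too (-0.64 and -0.41), as was Hspa8 (-0.15), which made 7 lower. Hspa8 (-0.09, 95% interval -0.34 to 0.16) and Dnajb1 (-0.06, -0.56 to 0.45) were the nearest to 0. All 4 called genes were lower without the library that stands apart, ∆Foxp3 B (Hsph1 -1.56, Hsp90ab1 -0.74, Hsp90aa1 -0.63, Dnaja1 -0.53), and Hsph1 was -1.52 without cells holding markers of other cell types. The part of the lower share of reads in cells was not tested. These resting cells also differed in state. Their activation and memory genes summed to 945 and 935 CPM in WT and to 1457 and 1935 CPM in ∆Foxp3 samples. The part of this in the calls was not tested.

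Immediate early genes, which rise within minutes of cell handling or T cell receptor signals, lay on the other side in the same samples. Their summed level was 1323 and 1404 CPM in WT and 1930 and 2106 CPM in ∆Foxp3 resting cells. Of 16 tested, 9 were higher and 1 lower in ∆Foxp3 cells (median 0.62), with Jun at 3.75, Junb at 1.14 and Dusp2 at 0.67 on the log2 scale. The samples with more immediate early mRNA were those with less Hsph1 and Hsp90, and the inducible Hspa1a and Hspa1b were near 0 in both genotypes. Cell handling and T cell receptor signals both raise immediate early genes, so their sums cannot separate the 2. The part of either in the chaperone difference was not tested. Of 26 tested other HSF1-linked and co-chaperone genes, 5 were higher and 8 lower (median -0.30). Ahsa2, related to the Hsp90 activator Aha1, changed by -1.58, St13, which links Hsp70 to Hsp90, by -0.83, and Dnajb6 by 0.67. Beyond the cytosolic system, 1 of 13 TRiC and prefoldin subunits was higher and 2 were lower, while 2 of 16 chaperones of the endoplasmic reticulum were higher and 3 lower, among them Hsp90b1 (-0.65), the Hsp90 of that compartment. None of 6 other mitochondrial chaperones was called.

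Activated Tconv cells of the same samples gave a like list. Hsph1 measured 40.7 and 41.4 CPM in WT and 14.3 and 12.9 CPM in ∆Foxp3 samples, which did not overlap. It was lower by -1.58 ± 0.21 on the log2 scale (edgeR, adjusted p = 0.00091). Hsp90aa1 (-0.78 ± 0.17, adjusted p = 0.011), Dnaja1 (-0.78 ± 0.11, 0.0012), Hsp90ab1 (-0.70 ± 0.10, 0.0012) and Hspe1 (-0.64 ± 0.10, 0.0025) were also lower by the same test. This made 5 of 8 lower and 0 higher, where 15.2% of all genes were called and 6% were called lower. Hspe1 fell from 342 and 323 CPM to 222 and 204. Hsp90aa1 missed the threshold without WT A (-0.65, adjusted p = 0.064). Hsph1 missed it without cells holding proliferation UMIs (-1.16, adjusted p = 0.18). Among the other HSF1-linked genes Fkbp4, an Hsp90 co-chaperone, was at -1.01 and Chordc1 at -0.99, and 2 of 23 were higher and 5 lower. Activation and memory genes summed to 6466 and 5654 CPM in WT and to 12847 and 13377 CPM in ∆Foxp3 activated cells. The part of this difference in the calls was not tested.

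No genotype test was run in cells annotated as Treg. Their Hsph1 level was 48.6 and 50.7 CPM in V2 WT and 11.6 and 5.68 in V2 ∆Foxp3 samples. The order was that of the other 2 classes. The ∆Foxp3 Treg sums held 601284 and 352226 UMIs in all, so their values rest on few Hsph1 molecules.

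**Figure D2:**
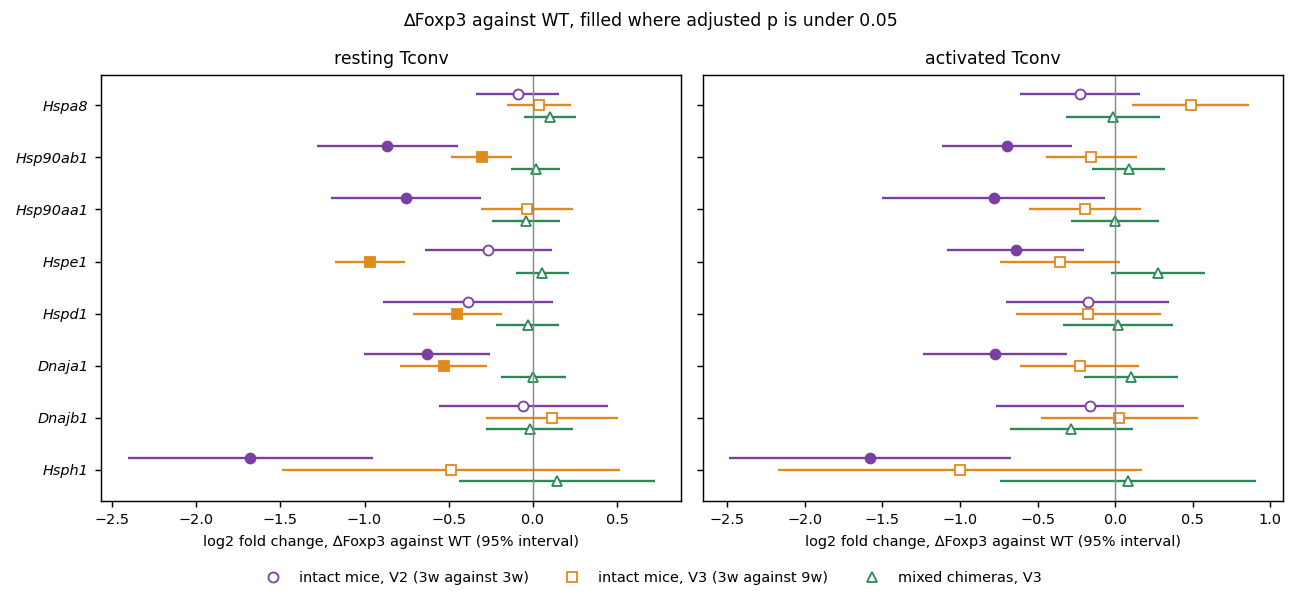
Log2 fold change of ∆Foxp3 against WT cells with 95% intervals for 8 chaperone genes in resting (left) and activated (right) Tconv cells, in V2 intact mice (circles), V3 intact mice of unequal age (squares) and mixed chimeras (triangles); filled symbols have an adjusted p under 0.05. Hsph1 lies at -1.68 in V2 resting cells and at 0.14 in the chimeras, where no symbol is filled.

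The V3 intact mice gave a different list. The ∆Foxp3 mice were 3 weeks old and the WT mice 9 weeks, so genotype and age cannot be told apart. Cells annotated as resting also differed in state. Their activation and memory genes summed to 11157 and 12188 CPM in ∆Foxp3 samples and to 765 and 906 CPM in WT samples. The part of this in the resting calls was not tested. Hspe1 measured 364 and 437 CPM in WT and 262 and 233 CPM in ∆Foxp3 resting cells, with no overlap. It was lower by -0.97 ± 0.09 on the log2 scale (edgeR, adjusted p = 4.2e-09) and was called in all 13 alternatives, from -1.11 to -0.68. Dnaja1 (256 and 253 CPM in WT, 219.5 and 211 in ∆Foxp3) changed by -0.53 ± 0.11 (edgeR, adjusted p = 0.00040), and Hspd1 (112 and 136, then 106 and 111) by -0.45 ± 0.11 (adjusted p = 0.0024). Neither overlapped. Hsp90ab1 was called at -0.30 ± 0.08 (edgeR, adjusted p = 0.0026) although its CPM overlapped, at 1121 and 1346 in WT and 1134 and 1296 in ∆Foxp3 cells, and was not called without WT sample 2 (-0.17, adjusted p = 0.10). In all, 4 of 8 were lower and 0 higher, where 41.5% of all genes were called and 19.2% were called lower.

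Scaling decides part of this. With scaling by total UMIs in place of TMM, the median over all genes moved from 0.00 to 0.28 and the share of calls that were higher from 53.6% to 78.7%. Hspe1 was then still lower (-0.68), Dnaja1 (-0.24), Hspd1 (-0.16) and Hsp90ab1 (-0.02) were not called, and Hspa8 (0.32, adjusted p = 0.0025 by edgeR) and Dnajb1 (0.40, adjusted p = 0.049) were called higher. Under TMM these last 2 were at 0.04 and 0.11. Hsp90aa1 was called under neither scaling (-0.04 with TMM, adjusted p = 0.84). Hspa8 measured 1069 and 1166 CPM in WT and 1387 and 1402 in ∆Foxp3 cells. Dnajb1 measured 36.4 and 35.3, then 49.2 and 45.8 CPM. Neither gene overlapped on the CPM scale. Hsph1, at 11.7 and 18.8 CPM in WT and 12.1 and 12.6 in ∆Foxp3 cells, overlapped and was not called (-0.49 ± 0.42, 95% interval -1.49 to 0.52). That interval overlaps the V2 interval of -2.41 to -0.95. Overlap of intervals is not a test, and the difference between the experiments was not tested for Hsph1. Immediate early genes summed to 1416 and 1509 CPM in WT and 2049 and 1954 in ∆Foxp3 resting cells here too, while Hsph1 and Hsp90aa1 were not called. Hspa9, the mitochondrial Hsp70, was lower by -0.69 and Clpp by -0.63, the 2 calls among 6 other mitochondrial chaperones; under total UMI scaling Hspa9 was at -0.40 and Clpp, at -0.34, was not called (adjusted p = 0.056).

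In activated Tconv cells of these mice no member was called (0 of 8, where 10% of all genes were called, and 2 members at an unadjusted p under 0.05). Hspa8 was nearest, at 1039 and 1038 CPM in WT and 1378 and 1483 CPM in ∆Foxp3 cells (0.49 ± 0.16, adjusted p = 0.063 by edgeR). It was called with the replicate number as a block (adjusted p = 0.014), with a term for the tube (0.045) and in 3 others of 12 alternatives. In the other direction Hsp90aa1 (-0.19) was called at -0.63 without the dividing clusters (adjusted p = 0.017), and Hspe1 at -0.59 without the NKT cluster and cells with other markers (0.039). Hsph1 measured 27.8 CPM in both WT samples and 13.3 and 13.9 in ∆Foxp3 samples. These did not overlap, but the gene rested on few molecules and was not called (-1.0 ± 0.50, adjusted p = 0.22 by edgeR), except with the block (0.046).

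In the mixed chimeras, where WT and ∆Foxp3 cells came from the same mouse, no member was called. The reported fit did not pair the genotypes by mouse, so its SE and intervals include the spread between mice. With the mouse as a block no call changed. Of 8 tested, 0 were called in resting Tconv cells, where 1.28% of all genes were called, and 0 in activated cells, where 0.137% were. In resting cells 0 members passed an unadjusted p under 0.05 and in activated cells 1 did, Hspe1. DESeq2 and every other alternative also called 0. Total UMI scaling moved the median of all genes from 0.00 to -0.10 in resting cells, and the share of resting calls that were higher from 67.7% to 19.4%. Resting Hsph1 measured 30.5, 11.5 and 17.4 CPM in WT cells of mice 1, 2 and 3, and 24.2, 10.9 and 18.8 CPM in ∆Foxp3 cells. The genotypes overlapped, at 0.14 ± 0.25 (95% interval -0.44 to 0.72). That interval does not overlap the -2.41 to -0.95 of the V2 mice, which differ from the chimeras in kit, age and host as well. Hsp90ab1 (0.02, interval -0.13 to 0.16), Hsp90aa1 (-0.04, -0.24 to 0.16) and Dnaja1 (0.00, -0.19 to 0.19) were close to 0 with narrow intervals. The spread in this fit was shared with the other V3 samples, whose replicates may be technical, so the intervals may be too narrow. Hspe1 in activated cells measured 248, 247 and 239 CPM in WT and 294, 270.3 and 262 in ∆Foxp3 cells. Every ∆Foxp3 value was higher, but the difference of 0.28 ± 0.13 was not called (edgeR, adjusted p = 0.53).

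For some members the order of the mice recurred in both genotypes. Hsph1 was highest in mouse 1 and lowest in mouse 2 in all 6 sets of class and genotype. The 2 genotypes of a mouse carried the same hashtag and ran in different tubes. Mouse 1 was highest in 5 of 6 sets for Hsp90aa1, Hspa8, Hspd1 and Dnaja1, but in 1 of 6 for Dnajb1 and 3 of 6 for Hspe1. This order was noticed after the values were seen and has no test. Hsph1 rested on 49 to 245 UMIs per resting sum and on 8 to 19 per Treg sum. Between tubes no member was called (0 of 8, where 0.835% of all genes were called, and 3 members at an unadjusted p under 0.05). Dnajb1 was at -0.21, Hsp90ab1 at 0.11 and Hspd1 at 0.16 for the second tube against the first.

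**Figure D3:**
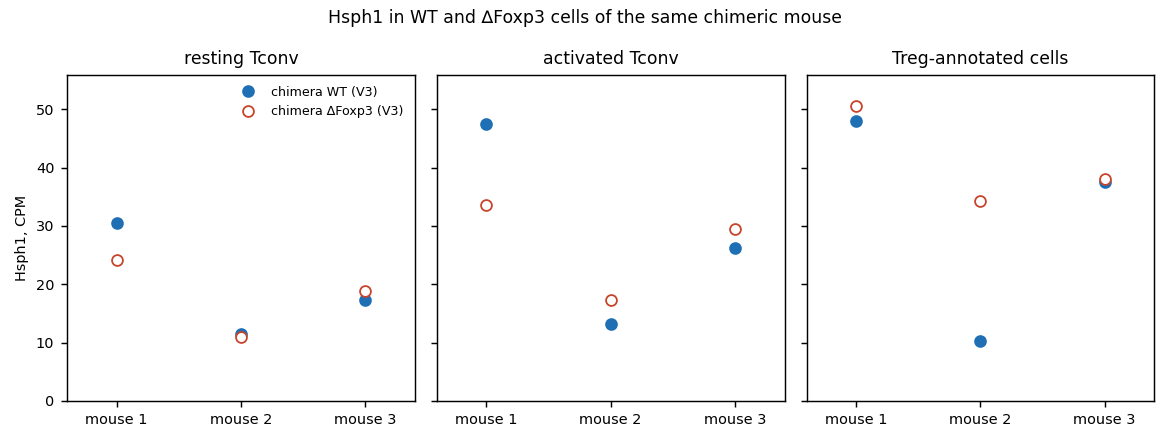
Hsph1 CPM in WT (filled) and ∆Foxp3 (open) cells of the 3 chimeric mice, for resting Tconv, activated Tconv and Treg-annotated cells. Mouse 1 lies highest and mouse 2 lowest for both genotypes in each class, for example at 30.5 and 11.5 CPM in resting WT cells.

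Chimera cells were set beside those of intact mice. No member was called between WT resting cells of the chimeras and WT cells at 9 weeks (0 of 8, where 0.383% of all genes were called, and 1 at an unadjusted p under 0.05). ∆Foxp3 resting cells of the chimeras held more Hsph1 (0.90 ± 0.32, adjusted p = 0.020 by edgeR), Hspe1 (0.82 ± 0.08, 5.7e-09), Dnaja1 (0.50), Hspd1 (0.32) and Hsp90ab1 (0.18) than those of ∆Foxp3 mice at 3 weeks. That is 5 of 8 higher and 0 lower, where 50.7% of all genes were called and 24.3% were called higher. Hspe1 was at 357, 367 and 346 CPM in the former and 262 and 233 in the latter. With total UMI scaling the median of all genes moved from 0.01 to -0.29 and the share of calls that were higher from 48.0% to 21.6%. Hsp90ab1 then turned to -0.12, and Hspa8 (-0.27), Hsp90aa1 (-0.24) and Dnajb1 (-0.33) were called lower. Hsph1 (0.61, adjusted p = 0.11), Dnaja1 (0.21, 0.072) and Hspd1 (0.02, 0.87) lost their call, so that 1 member, Hspe1 (0.52), was higher and 3 were lower. Under TMM, Hsph1 was not called without chimera mouse 1 (0.63, adjusted p = 0.12), and lost its call also without either ∆Foxp3 sample at 3 weeks (adjusted p = 0.056 and 0.075). Hsp90ab1 was not called without chimera mouse 1 or 2 or ∆Foxp3 sample 1 at 3 weeks (adjusted p = 0.13, 0.054 and 0.37). The groups differ in age and transplantation, and the 3-week ∆Foxp3 samples are also those of the comparison with WT mice at 9 weeks. Their resting classes differ in state too, with activation and memory genes at 854 to 860 CPM in the chimeras and 11157 and 12188 CPM at 3 weeks. The part of this in the calls was not tested.

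Activation itself went with less mitochondrial chaperonin mRNA. Hspe1 was lower in activated than in resting Tconv cells of the same sample in 4 of 4 V2 samples (ratio 0.553 to 0.751) and in 10 of 10 V3 samples not sorted on GFP (0.561 to 0.824). In the 2 sorted Tconv samples, which the test left out, the ratio was 1.09 and 0.597. In the V2 WT samples it was 456 and 435 CPM in resting and 342 and 323 in activated cells. The classes rest on the authors' clusters of the same cells, so p-values and calls between classes are descriptions. With the sample as a block, the log2 fold change was -0.79 ± 0.05 in V2 (edgeR, adjusted p = 2.3e-14) and -0.78 ± 0.05 in V3 (3.3e-18). Its partner Hspd1 changed by -0.44 ± 0.07 and -0.44 ± 0.06, and both stayed called and lower under every alternative, total UMI scaling included (Hspe1 -0.61 and -0.53, Hspd1 -0.26 and -0.19). Hspa9 was lower too, by -0.80 in V2 and -0.70 in V3, and of 6 other mitochondrial chaperones 5 were lower in V2 and 2 in V3, with 0 higher. Under total UMI scaling Hspa9 was still lower (-0.62 and -0.46), but of the 6 only 2 were lower in V2, and 1 was lower and 1 higher in V3.

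Cytosolic members followed less evenly. In V2, 7 of 8 members were lower and 0 higher in activated cells, where 43.1% of all genes were called and 21.1% were called lower. In V3, 5 were lower and 1 higher, where 38.5% of all genes were called, 18.1% of all genes as lower and 20.4% as higher. Hsp90ab1 was lower in both, at -0.34 ± 0.04 and -0.36 ± 0.04, and under total UMI scaling at -0.16 and -0.10. Hspa8 was lower by -0.17 in V2 and -0.27 in V3 under TMM, but at 0.01 and -0.02, not called, under total UMI scaling. The V2 call was also lost without WT B (-0.13, adjusted p = 0.11). Dnajb1 was called lower in V2 (-0.25, adjusted p = 0.012 by edgeR), but not with DESeq2 (0.19) or without ∆Foxp3 A (-0.16, adjusted p = 0.30), WT A (0.072) or WT B (0.11). That scaling moved the median of all genes from -0.01 to 0.17 in V2 and from 0.00 to 0.25 in V3, and the share of calls that were higher from 50.9% to 73.3% and from 52.9% to 86.5%. The members called were then 4 lower and 0 higher in V2, and 3 lower and 3 higher (Hsph1 at 0.54, Hsp90aa1 at 0.26 and Dnaja1 at 0.14) in V3. Dnaja1 turned with it in V3, from -0.11 ± 0.04 (edgeR, adjusted p = 0.039) to 0.14, and its CPM ratio was above 1 in 10 of 10 V3 samples (1.05 to 1.20) but below 1 in 4 of 4 V2 samples (0.844 to 0.968). The TMM call of Dnaja1 in V3 was lost with DESeq2 (adjusted p = 0.087) and without any 1 sample other than ∆Foxp3 cells of chimera mouse 2.

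Hsph1 was the one member called higher in activated V3 cells, at 0.29 ± 0.11 (edgeR, adjusted p = 0.036), and its ratio was above 1 in 10 of 10 V3 samples (1.10 to 2.39). The call did not hold with DESeq2 (adjusted p = 0.057), without WT at 9 weeks sample 1 (0.20, adjusted p = 0.34), or without the NKT cluster and cells with other markers (0.07). It was also lost without WT cells of chimera mouse 1 or 3, ∆Foxp3 cells of chimera mouse 3, or either ∆Foxp3 sample at 3 weeks (adjusted p = 0.056 to 0.088), and the value was -0.15 without cells holding proliferation UMIs. In V2 it was not called (-0.13, 95% interval -0.51 to 0.25). Hsp90aa1 was not called in V3 (0.01 ± 0.05), although its CPM ratio was above 1 in 9 of 10 samples. It was called higher under total UMI scaling (0.26) and lower without the authors' 2 dividing clusters (-0.19).

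**Figure D4:**
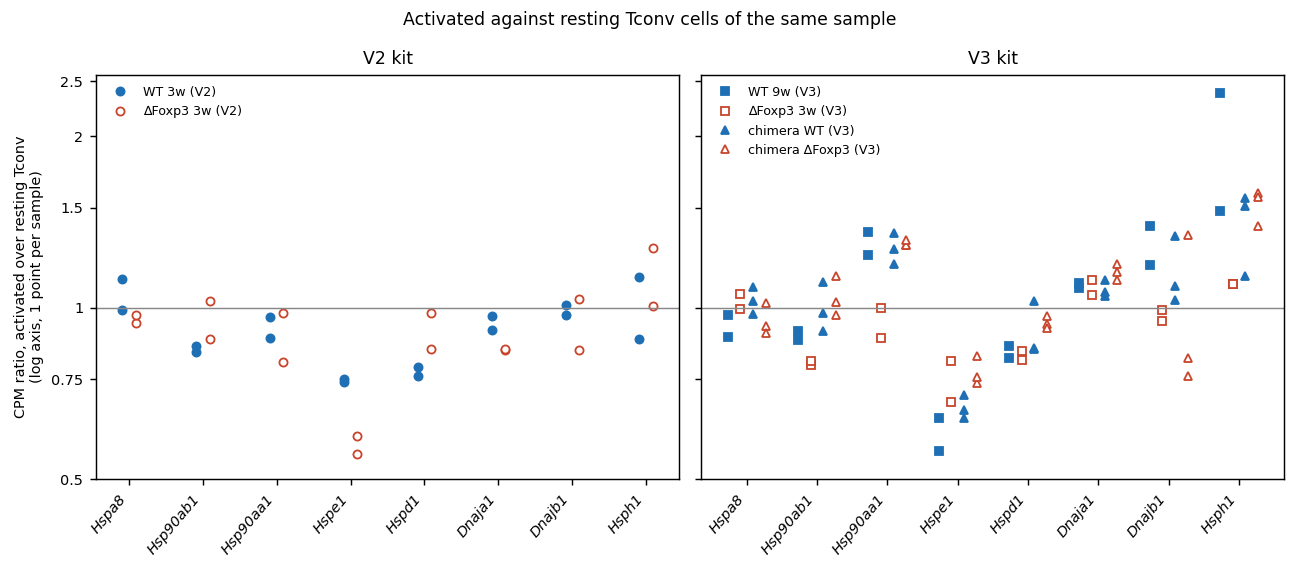
Ratio of CPM in activated over resting Tconv cells of the same sample, on a log axis, 1 point per sample, for the V2 kit (left) and the V3 kit (right, samples not sorted on GFP). Hspe1 lies below 1 in every sample shown, between 0.553 and 0.824, and Hsph1 above 1 in all 10 V3 samples.

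Other chaperone lists were counted in the same fits, where 21.9% of all genes were called higher and 21.1% lower in V2, and 20.4% and 18.1% in V3. Of 16 endoplasmic reticulum chaperones, 9 were higher and 1 lower in V2 and again 9 and 1 in V3 (medians 0.23 and 0.21). Under total UMI scaling these were 14 and 1, and 14 and 0. Hsp90b1 was at 0.79 and 0.53, and Sdf2l1, a partner of the Hsp70 of that compartment, at 0.85 and 0.76. Of 13 TRiC and prefoldin subunits, 9 were lower and 3 higher in V2, and 10 lower and 0 higher in V3, with Cct5 at -0.34 and -0.33 and Tcp1 at -0.36 and -0.32. These counts turned with the scaling. Under total UMI scaling 4 were higher and 3 lower in V2, and 3 higher and 0 lower in V3, where Cct5 (-0.08) and Tcp1 (-0.07) were not called. The other HSF1-linked genes were split, with 6 higher and 9 lower of 25 in V2 and 6 higher and 6 lower of 27 in V3, but 10 and 5, and 13 and 1, under total UMI scaling. Fkbp5, which glucocorticoids also raise, was at 0.85 and 0.73 and Fkbp4 at -0.59 and -0.35 under TMM, with -0.10 and no call in V3 under total UMI scaling. Of the immediate early genes 1 was higher and 8 lower of 16 in V2, and 1 and 10 of 15 in V3 (4 and 7, and 3 and 6, under total UMI scaling), with Myc at -1.48 and -1.71 and Zfp36 at -0.88 and -0.52. Their summed CPM was higher in activated than in resting cells in 2 of 4 V2 samples, both WT, and in 6 of 10 V3 samples.

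The activation difference of Hspe1 was called different between genotypes in V2 and V3 intact mice, with opposite signs and neither call kept throughout. In V2 it was larger in ∆Foxp3 cells by -0.37 ± 0.10 (edgeR, adjusted p = 0.016), the only one of 8 members called, where 7.78% of all genes were called and 4.87% were called lower. The call was lost without the dividing clusters (adjusted p = 0.050), with DESeq2 (0.18), and without WT A, WT B or ∆Foxp3 A (adjusted p = 0.37, 0.33 and 0.11). In V3 intact mice it was smaller in ∆Foxp3 cells, by 0.64 ± 0.15 (edgeR, adjusted p = 0.0049), and Hspa8 differed by 0.47 ± 0.13 (0.013), 2 of 8 higher, where 5.97% of all genes were called and 1.97% were called higher. Both lost their call without ∆Foxp3 sample 2 or WT sample 2 and under total UMI scaling, where Hsp90aa1 (-0.47) was called instead. That scaling moved the median of all genes from -0.01 to -0.34 and the share of calls that were higher from 33.0% to 8.17%. The V3 resting class of ∆Foxp3 cells already held many activation genes, as given above, and the part of that in the difference was not tested. In the chimeras 0 of 8 members were called, where 0.0821% of all genes were (0 at an unadjusted p under 0.05), with Hspe1 at 0.22 (95% interval -0.04 to 0.47).

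Under TMM, Dnajb1 was called lower in cells annotated as Treg. Its CPM ratio, Treg over resting, was below 1 in 4 of 4 V2 samples and in 7 of 10 V3 samples (V3 range 0.332 to 1.56). V3 Treg sums held as few as 175899 UMIs, so some of these values rest on few Dnajb1 molecules. These classes too rest on clusters of the same cells, so the p-values are descriptions. Against resting Tconv cells of the same sample Dnajb1 was at -0.54 ± 0.13 in V2 (edgeR, adjusted p = 0.0025) and -0.59 ± 0.17 in V3 (0.0068), Hspe1 at -0.44 and -0.41, and Hspd1 at -0.33 and -0.43. In V2, 5 of 8 members were lower and 0 higher, where 21.5% of all genes were called and 10.8% were called lower. In V3, 6 were lower and 0 higher, where 21.9% were called and 12.3% were called lower. With total UMI scaling, which moved the median of all genes from -0.03 to 0.12 in V2 and from -0.07 to 0.16 in V3, 2 members stayed lower in V2 and 1 in V3, and the share of calls that were higher went from 49.9% to 72.7% and from 44.0% to 81.6%. Dnajb1 was not called in V2 without ∆Foxp3 A (-0.36, adjusted p = 0.20), nor in V3 under total UMI scaling (-0.35, adjusted p = 0.14). Hspd1 in V2 was not called with DESeq2 (adjusted p = 0.081) or without ∆Foxp3 A, WT A or WT B (adjusted p = 0.17, 0.056 and 0.066). Hspe1 was the gene called in V3 under both scalings.
In the cells sorted on the GFP reporter, Hspe1 was again lower in Treg than in Tconv samples (-0.37 ± 0.09, edgeR, adjusted p = 0.013), 1 of 8 members, where 12.2% of all genes were called and 6.01% were called lower. Dnajb1 averaged 38.5 CPM in the sorted Treg and 34.8 CPM in the sorted Tconv samples, with overlap, and was not called. Hspe1 measured 349 and 312 CPM in the Treg and 349.8 and 372 in the Tconv samples. The call was lost under total UMI scaling, which moved the median of all genes from 0 to 0.26 and the share of calls that were higher from 50.6% to 81.9% (-0.12, where Hsp90aa1 at 0.57 and Hsp90ab1 at 0.29 were called higher), and without Tconv sample 1 (adjusted p = 0.11) or Treg sample 2 (0.15).

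Among the authors' Tconv clusters, cells of the resting class named TCRhi had higher mean levels of both J-domain genes than the first resting cluster, with ranges that overlapped. Dnaja1 averaged 455 ± 136 CPM (SD, n = 4 samples) there in V2 and 367 ± 79.2 (n = 9) in V3, against 313 ± 77.0 (n = 4) and 242 ± 27.7 (n = 12) in the first resting cluster. Dnajb1 averaged 86.2 ± 32.5 and 67.3 ± 24.2 CPM there, against 65.2 ± 5.75 and 36.9 ± 7.63. Dividing cells had Hsp90aa1 at 329 ± 85.5 (n = 4) and 318 ± 31.2 CPM (n = 3), against 258 ± 75.6 (n = 4) and 196.5 ± 27.6 (n = 12) in the first resting cluster. Th1 cells had Hspe1 at 208 ± 41.6 (n = 4) and 234 ± 47.4 CPM (n = 9), against 415 ± 45.0 and 356 ± 58.0. The 3 V3 samples with enough dividing cells were all ∆Foxp3, while the V3 resting values cover both genotypes. Genotype and cluster cannot be told apart in that V3 difference. These values are descriptions, since the clusters were defined on the same cells.

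**Figure D5:**
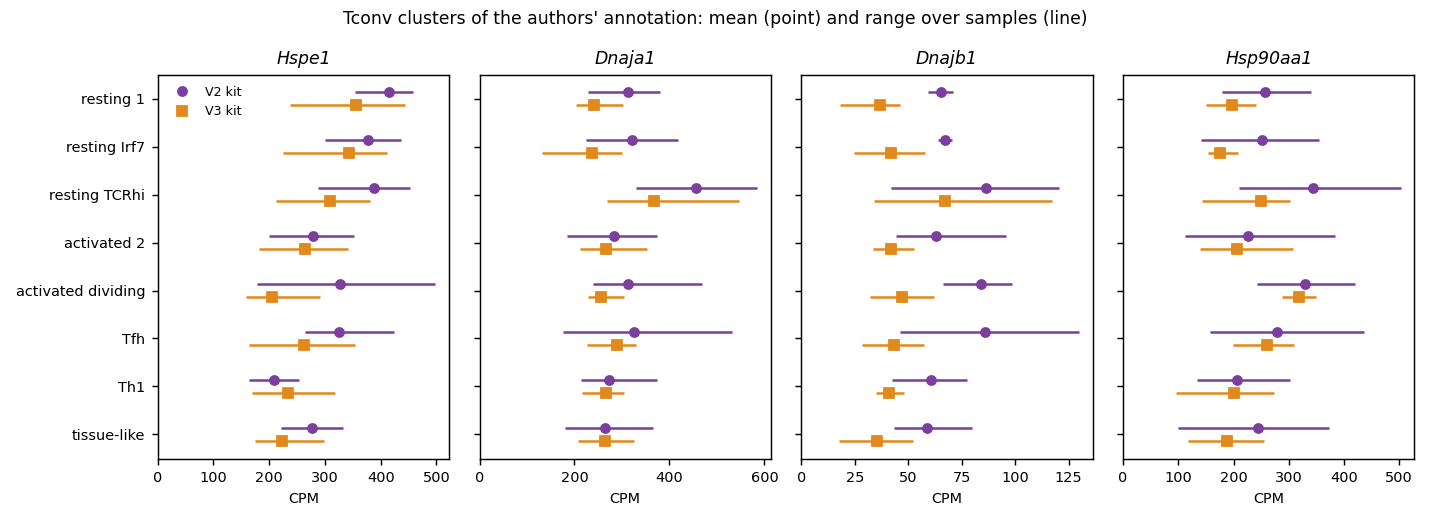
CPM of Hspe1, Dnaja1, Dnajb1 and Hsp90aa1 in 8 Tconv clusters of the authors' annotation, with the mean over samples (point) and the lowest and highest sample (line), for V2 (circles) and V3 (squares). Dnaja1 is at 455 (V2) and 367 (V3) CPM in the TCRhi cluster against 313 and 242 in the first resting cluster, and their ranges overlap.

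Across the 12 V3 resting sums, members did not form one block. Log levels of Hsph1 and Dnaja1 correlated at a Pearson r of 0.71 and those of Hsph1 and Hsp90aa1 at 0.62, while Dnajb1 and Hspe1 stood at -0.65. These sums share tubes and groups, including the ∆Foxp3 mice whose resting class held many activation genes, so the values are descriptions. Of 4807 genes with a mean of at least 20 CPM, those most like the mean of Dnajb1 and Hsph1 were Arid2 (r = 0.87), Polr2g (0.86), Osbpl8 (0.86), Banp (0.86) and Stag1 (0.85). With Hspa1a and Hspa1b, which were at 0 in most of these sums, in the mean the list was Rbm34 (0.90), Stag1 (0.89), Arid2 (0.85), Nsfl1c (0.84) and Larp1 (0.82). Most like the mean of Hsp90ab1, Hspa8, Hspd1 and Hspe1 were Wdr75 (0.83), Hnrnpc (0.82), Eef1e1 (0.80), Samd1 (0.78) and Il2rg (0.78).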

How the data were processed

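Single-cell RNA-seq UMI counts per gene and cell were deposited by the authors as one matrix of 18 samples; they were made with Cell Ranger 3.0.2 and mm10, per the submitters' processing notes. Cells, classes and clusters follow the authors' deposited annotation. The deposited percent of mitochondrial UMIs reached 15.0, the deposited fraction of reads in cells exists for the first experiment, and the deposited Scrublet score reached 0.293, with 0 cells called doublets. Kit versions follow the labels, since the deposited metadata give V3 for all cells, and 50 metadata columns were not used. UMIs were summed per sample and class (at least 20 cells; 712391 to 12306282 UMIs per resting sum) and given as CPM. V2 and V3 sums were fitted apart with edgeR 4.0.16 in R 4.3.3 (quasi-likelihood F test, TMM, filterByExpr with a minimum count of 10, Benjamini-Hochberg over all genes, threshold 0.05), which was checked on simulated counts. V3 fits of a class held all V3 samples with that class. Comparisons of classes had the sample as a block. The classes were defined on the expression of the same cells, so p-values between them are descriptions. The 95% intervals use the degrees of freedom between samples alone and are wider than the moderated test. The named genes are the 10 members, up to 3 genes of lowest p in each other list, and the 5 nearest in pattern. The members and lists were chosen with earlier results of these data known. Chimera numbers pair the samples by mouse, from the shared hashtag in the labels. Same-mouse deviations correlated at 0.16, 0.05 and 0.11 in resting and 0.20, 0.22 and 0.04 in activated cells. Those of different mice ranged from -0.15 to 0.080 and from -0.24 to 0.089, so some exceeded same-mouse values. Deviations were taken from the mean of each group, which pushes different-mouse values down. Replicates of a group differed by more than sampling noise (chi-square per degree of freedom 2.15 to 12.6). Alternatives were DESeq2 1.42.0, its size factors, no count filter, other cell filters, a replicate block, a tube term and each replicate left out. Total UMI scaling and leaving out the 2 dividing clusters were added after seeing the data. Promoter sequences are from RefSeq (GRCm38.p6) and gene positions from GENCODE. Sums and plots were made in Python 3.11.15 (pandas 2.3.3, matplotlib 3.10.9, numpy 2.4.6).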

Additional observations from a re-analysis of the deposited data

Results flagged for a closer look

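The activated-minus-resting difference of Hspe1 differed between genotypes by the interaction test, by -0.37 on the log2 scale in V2 mice and by 0.64 in V3 intact mice, in opposite directions. That of Hspa8 differed by 0.47 in V3 intact mice. None of these calls held in every alternative, as given above, and the chimeras gave no such call. Other results are named because every ∆Foxp3 sample lay below every WT sample in one comparison and above in another. The difference between the experiments was not tested in these. With so few samples a group such separation often arises by chance, and its share over all genes was not counted. For Hspa8 the ratio of mean CPM, ∆Foxp3 over WT, was 0.946 in V2 and 1.25 in V3 resting cells, and 0.856 and 1.38 in activated cells. For Hsp90aa1 in resting cells it was 0.594 in V2 and 1.17 in V3. These ratios are of CPM on total UMIs; with TMM, V3 resting Hsp90aa1 was at -0.04 and Hspa8 at 0.04 on the log2 scale, neither called, so the V3 ratios above 1 in resting cells rest on that scaling. For Hspe1 in activated cells it was 0.641 in V2 and 0.767 in V3 intact mice, and 1.13 in the chimeras. Kit, library scaling and the age of the WT mice differ between the experiments and cannot be told apart from it.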

How the results depend on the processing

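Counts of called members are given beside their value in the report's fit. With DESeq2, 121 of 131 values kept their direction and side of the threshold and 10 lost the call; with total UMI scaling 104 of 136 did, 17 lost it, 7 gained it and 8 turned. For ∆Foxp3 against WT, V2 resting cells gave 4 lower, and 4 to 7 with each sample left out; V3 resting cells gave 4, but 2 without cells holding proliferation UMIs; V3 activated cells gave 0, but 1 without the count filter, 2 without the NKT cluster and cells with other markers, 2 without the dividing clusters, 2 with the replicate block and 1 with a tube term. For activated against resting cells V2 gave 7, and 4 with total UMI scaling; V3 gave 6 under both scalings, as 5 lower and 1 higher with TMM and 3 of each with total UMIs. For Treg against resting cells V2 gave 5, but 2 with DESeq2, 3 without proliferation cells, 2 with total UMI scaling and 2 to 5 with each sample left out; V3 gave 6, but 1 without proliferation cells and 1 with total UMI scaling. For the genotype difference of activation V2 gave 1, but 0 with DESeq2, without NKT and other-marker cells, without proliferation cells and without the dividing clusters, and 0 to 1 with each sample left out; V3 gave 2, but 1 with total UMI scaling and 0 to 2 with each sample left out. ∆Foxp3 chimera against ∆Foxp3 mice gave 5, all higher, but 4 with total UMI scaling (1 higher, 3 lower), 3 with DESeq2, 2 without proliferation cells and 3 to 5 with each sample left out. Sorted Treg against Tconv gave 1, but 0 without NKT and other-marker cells, 0 without proliferation cells, 2 with total UMI scaling and 0 to 1 with each sample left out. The tubes gave 0, but 1 without the count filter, 1 without NKT and other-marker cells and 0 to 1 with each sample left out. In every case not shown by fewer cells, samples or genes, the cause was not tested.

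Values that turned were, with total UMI scaling, Hspa8 at 0.0099 for V2 activated against resting, Dnaja1 at 0.14 for V3 activated against resting, Hspa8 at 0.020, Hsp90ab1 at 0.012 and Dnaja1 at 0.072 for V3 Treg against resting, and Hspa8 at -0.27, Hsp90aa1 at -0.24 and Hsp90ab1 at -0.12 for ∆Foxp3 chimera against ∆Foxp3 mice. In V3 activated against resting cells Hsph1 turned to -0.15 without proliferation cells and Hsp90aa1 to -0.19 without the dividing clusters. With the replicate block 68 of 72 values kept their call and 4 gained one: Hspd1 (-0.40) and Hspe1 (-0.27) in V2 resting cells, and Hsph1 (-1.0) and Hspa8 (0.49) in V3 activated cells of intact mice; in these 2 pairs of groups the samples share only a letter or number, and same-numbered samples correlated at 0.19 and 0.20. In the chimeras, paired by mouse, the block changed no call. V3 ∆Foxp3 against WT activated cells without proliferation cells, and the V3 difference without proliferation or other-marker cells, could not be fitted, with under 20 cells in a sum. The filters on UMIs of proliferation or other markers left out 32.3% to 98.4% of cells in a V2 or V3 Tconv sum. Depth left Hspa1a and Hspa1b untested, and Hsph1 rested on 8 to 245 UMIs in a chimera class sum.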
